A study of Bos taurus with 9 samples.

Results

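Mitochondrial DNA is copied and read by proteins that the nuclear genome encodes, and 10 of their genes were followed here in the liver of Holstein dairy cows: *TFAM*, *TFB2M*, *POLRMT*, *TEFM*, *TFB1M*, *POLG*, *POLG2*, *SSBP1*, *LRPPRC* and *SLIRP*. They were chosen by symbol for their known roles, with earlier results of these data known, and they are 10 of the 28786 genes in the count table. Each was set, cow by cow, beside the 13 genes for proteins that mitochondrial DNA itself carries.

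Lactating cows were kept under thermoneutrality (TN), under heat stress (HS), or under thermoneutrality with feed restricted to what HS cows ate (PF, pair-fed). The PF group therefore shares the reduced intake of HS cows without the heat load. Each group held 3 cows that were separate animals, each cow gave 1 liver biopsy and 1 RNA-seq library. The site of the biopsy was numbed with lidocaine, a local anesthetic, in all cows. The breed was the same in all cows, their ages were not given in the sources used here, and cows are named below by group and replicate, from TN1 to HS3.

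Transcription of mitochondrial DNA begins when *TFAM*, a DNA-bending protein that also packages the genome, brings the RNA polymerase *POLRMT* to a promoter, where *TFB2M* opens the strands. *TEFM* keeps the polymerase moving along the template. Each strand is transcribed as a long precursor that is cut into separate RNAs, and the complex of *LRPPRC* with *SLIRP* binds and stabilizes the mRNAs. Replication uses a polymerase made of the catalytic subunit *POLG* and the accessory subunit *POLG2*, with *SSBP1* coating single-stranded DNA. *TFB1M*, a relative of *TFB2M*, methylates the small ribosomal RNA of mitochondria. Liver is rich in mitochondria, and hepatocytes draw on them for gluconeogenesis, fatty acid oxidation and urea synthesis.

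The libraries held 16874444 to 22557047 read counts, and the 10 genes were read from 58 counts (*TFB1M* in HS3) to 1295 counts (*SLIRP* in PF2). Levels are given as CPM, read counts scaled to library size with TMM normalization, and they are compared between cows and not between genes, because counts were not divided by gene length. TN1 stood apart from the other cows: its 8 hepatocyte markers summed to 15250 CPM against 53285 to 111487 CPM in the other 8 cows. *ALB* was the largest part, with 8768 CPM in TN1 against 33905 to 82515 CPM in the others. *TTR*, *SERPINA1*, *FGB* and *CPS1* were also lowest in TN1. *APOB*, at 974 CPM in TN1, lay within the 589 to 1267 CPM of the others, as did *ASGR1* and *HNF4A* within their ranges. No hepatocyte marker was at 0 in any group, and the sums ran from 15250 to 67152 CPM in TN, from 76485 to 107743 CPM in PF and from 53285 to 111487 CPM in HS cows. The sum of the 4 measured neutrophil markers, of 5 listed, was higher in every HS cow (42.9 to 131 CPM) than in any TN cow (18.9 to 37.7 CPM). Singly, only *S100A9* was separated in this way, while *S100A8*, *S100A12* and *CXCR2* overlapped between HS and TN cows. None of the 4 markers was at 0 in any group. In PF cows the 4 markers summed to 11.1 to 57.3 CPM, which overlapped with both other groups. The sum of the erythroid markers was lower in all PF cows (0 to 2.29 CPM) and all HS cows (0.336 to 1.33 CPM) than in any TN cow (3.4 to 22.4 CPM). *HBB*, a globin, made up most of that sum in the TN cows but only 0.526 of 1.17 CPM in HS2. *SLC4A1*, the last of the 6 listed, was at 0 in all cows. Kupffer cell markers summed to 1234 to 2799 CPM in TN, 1019 to 1690 CPM in PF and 1796 to 3112 CPM in HS cows, with no overlap between HS and PF. The part of these markers in the results below was not tested. In a tissue biopsy, fewer cells of a type and less RNA per cell cannot be told apart.

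None of the 10 genes was a differentially expressed gene (DEG) in any comparison. By the same edgeR limits none of the 13 mitochondrial genes was a DEG either, though all 13 had lower mean levels in HS and PF cows than in TN cows. A DEG had a false discovery rate (FDR) under 0.1 and a fold change over 1.5 in the quasi-likelihood test of edgeR, where 0.0892% of all tested genes were DEGs between HS and TN, 0.0276% between HS and PF, and 0% between PF and TN. The DESeq2 test at the same limits called 1.32%, 0.596% and 0.449% of all genes in these comparisons, and again none of the 10. At an unadjusted p under 0.05, edgeR gave 0 of the 10 genes between HS and TN, 0 between HS and PF, and 1 between PF and TN, which was *POLRMT*. The corresponding shares of all genes were 9.36%, 5.32% and 6.88%. The limits of these tests were wide, and the 95% interval of the fold change reached beyond 2-fold in either direction for 4 of the 10 genes between HS and TN, for 2 between HS and PF and for 3 between PF and TN.

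*TFAM* measured 23.9, 25.3 and 20.5 CPM in the TN cows, 32.5, 28.9 and 25.5 CPM in the PF cows, and 25.4, 31.6 and 30.7 CPM in the HS cows. Every PF and HS cow was above every TN cow, though the lowest HS cow and the highest TN cow were nearly level. The group means were 23.2 ± 2.48 in TN, 29.0 ± 3.48 in PF and 29.2 ± 3.34 CPM in HS (SD, n = 3). In edgeR the log2 fold change was 0.31 (SE 0.20, FDR = 0.620) for HS against TN and 0.32 (SE 0.24, FDR = 0.745) for PF against TN. Between HS and PF it was 0.01, with a 95% interval from -0.46 to 0.48. The separation of the groups depended on the scale. Per count outside the mitochondrial genome, the HS cows lay within the range of the TN cows and differed from them by 0.02 on the log2 scale. That value rested on TN1. Without TN1 the HS cows were higher by 0.24, and 2 of the 3 HS cows lay above both remaining TN cows.

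*TFB2M*, the strand-opening factor, spread more widely. Its levels were 4.16, 9.45 and 8.29 CPM in TN, 16.5, 13.7 and 6.06 CPM in PF, and 11.5, 8.71 and 11.2 CPM in HS cows. The lowest of all cows was TN1 and the highest was PF1, 3.95-fold apart, and the groups overlapped in each comparison. The largest log2 fold change was 0.73 (SE 0.42, edgeR FDR = 0.709), for PF against TN. For HS against TN it was 0.51, with a 95% interval from -0.22 to 1.24. Without TN1 these log2 fold changes of *TFB2M* were 0.45 and 0.24, and without PF1 that for PF against TN was 0.44.

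*POLRMT*, the mitochondrial RNA polymerase, had the opposite order, with its highest mean in TN cows. The TN cows measured 24.3, 12.8 and 16.2 CPM, the PF cows 9.83, 6.09 and 14.3 CPM, and the HS cows 12.3, 10.1 and 12.7 CPM. All 3 HS cows were below all 3 TN cows by a narrow gap, and PF3 lay among the TN cows. The log2 fold change was -0.63 (SE 0.28, edgeR FDR = 0.522) for HS against TN and -0.82 (SE 0.36, edgeR FDR = 0.708) for PF against TN, with 95% intervals from -1.26 to 0.00 and from -1.60 to -0.04. The highest level of *POLRMT* belonged to TN1, the cow with the lowest sum of hepatocyte markers. Without TN1, the log2 fold change of *POLRMT* was -0.31 for HS against TN and -0.52 for PF against TN. These were the values nearest to 0 among the 14 alternatives described below, which reached -0.81 and -1.17 at the other end. Per count outside the mitochondrial genome, HS1 was above TN2 and the groups overlapped, and the difference of -0.87 on that scale was -0.42 without TN1. Without TN2 it was -1.19, and all 3 HS cows lay below both remaining TN cows. *POLRMT* and *HCN2* overlap in the RefSeq annotation, so that reads of either gene could be shared if they were counted without regard to strand. In all, 5 of the 10 genes overlap another annotated gene, among them *TFAM* (with *ZNF239*) and *LRPPRC* (with a pseudogene and a small nucleolar RNA).

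Over the 10 genes, groups that did not overlap were seen for *TFAM* and *POLRMT* between HS and TN, for *TFAM* alone between PF and TN, and for none between HS and PF. Among all tested genes, 16.1% did not overlap between HS and TN, 13.2% between PF and TN and 10.5% between HS and PF, so that the counts of 2, 1 and 0 of 10 were close to these shares.

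**Figure D1:**
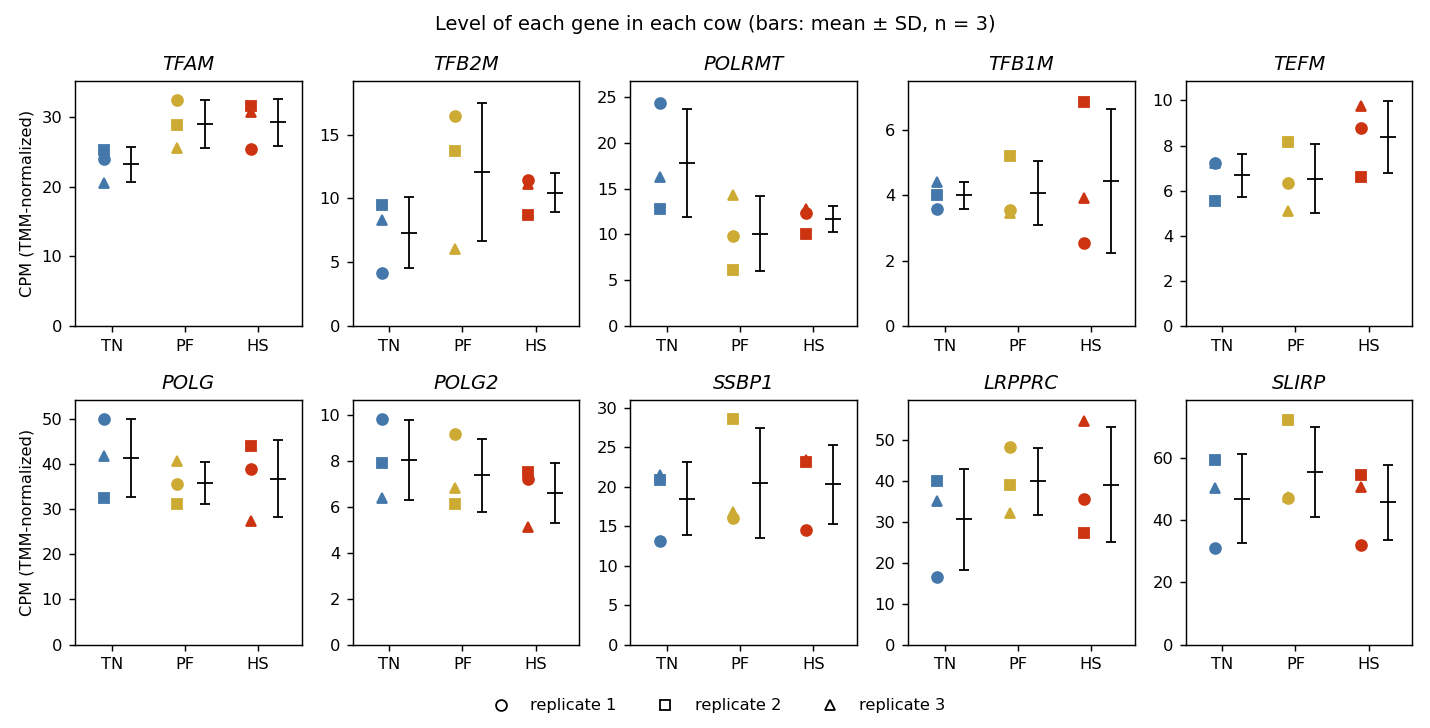
Level of each of the 10 genes in TMM-normalized CPM (vertical axis, starting at 0) in the TN, PF and HS cows, with circles, squares and triangles for replicates 1, 2 and 3 and a bar for the mean ± SD of 3 cows. *TFAM* lies higher in all PF and HS cows than in the TN cows and *POLRMT* lower in all HS cows, while the groups of the other 8 genes overlap in each comparison.

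*TEFM*, the elongation factor, had its highest mean in HS cows. It measured 7.25, 5.56 and 7.22 CPM in TN, 6.33, 8.16 and 5.10 CPM in PF, and 8.79, 6.61 and 9.76 CPM in HS cows. HS2 lay inside the range of both other groups. The log2 fold change was 0.31 for HS against TN and 0.36 for HS against PF, and the 95% intervals reached from -0.32 to 0.94 and from -0.31 to 1.02. The first of these log2 fold changes was 0.19 without HS3 and 0.20 without TN2, and the second was 0.20 without PF3 and 0.55 without PF2.

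*TFB1M*, the ribosomal RNA methyltransferase, was the least counted of the 10 genes. The TN cows lay close together at 3.58, 4.01 and 4.41 CPM and the PF cows at 3.55, 5.20 and 3.47 CPM. The HS cows held both the lowest and the highest level of all 9, with 2.55, 6.84 and 3.90 CPM. For HS against TN its log2 fold change was 0.12, with a standard error of 0.41 that was the largest among the 10 genes in that comparison. The gene overlaps *TIAM2* and *CLDN20* in the RefSeq annotation.

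*POLG*, the catalytic subunit of the DNA polymerase, measured 49.8, 32.5 and 41.6 CPM in TN, 35.5, 31.1 and 40.6 CPM in PF, and 38.8, 43.9 and 27.3 CPM in HS cows. Its accessory subunit *POLG2* measured 9.84, 7.91 and 6.38 CPM in TN, 9.17, 6.15 and 6.83 CPM in PF, and 7.20, 7.54 and 5.11 CPM in HS cows. Both subunits were highest in TN1 and lowest in HS3, with overlap between all groups. For HS against TN the log2 fold change was -0.19 for *POLG* and -0.30 for *POLG2*, with 95% intervals from -0.77 to 0.38 and from -0.97 to 0.36. Both values lay nearer to 0 when TN1 or HS3 was left out, to -0.02 in either case for *POLG*, and to -0.11 and -0.14 for *POLG2*. Without HS2 or TN2 that of *POLG* was -0.33. *POLG* overlaps *FANCI*, a DNA repair gene, in the annotation.

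*SSBP1*, the single-stranded DNA binding protein, measured 13.2, 20.9 and 21.5 CPM in TN, 16.0, 28.6 and 16.8 CPM in PF, and 14.5, 23.2 and 23.3 CPM in HS cows. Its group means of 18.5 ± 4.64, 20.5 ± 7.01 and 20.3 ± 5.03 CPM (SD, n = 3) differed by less than the SD of any group. The log2 fold change for HS against TN was 0.12, with a 95% interval from -0.49 to 0.73.

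*LRPPRC*, which stabilizes mitochondrial mRNAs, measured 16.6, 40.1 and 35.1 CPM in TN, 48.4, 39.1 and 32.2 CPM in PF, and 35.6, 27.2 and 54.6 CPM in HS cows. TN1 had the lowest level of the 9 cows and HS3 the highest, a 3.29-fold range. Its partner *SLIRP* measured 31.2, 59.4 and 50.3 CPM in TN, 47.2, 72.4 and 47.3 CPM in PF, and 32.0, 54.7 and 50.7 CPM in HS cows. In all groups the *SLIRP* levels spanned much of the same range. For HS against TN the log2 fold change was 0.35 for *LRPPRC* and -0.05 for *SLIRP*, with 95% intervals from -0.45 to 1.14 and from -0.71 to 0.61. The value for *LRPPRC* rested on single cows, and it was 0.06 without TN1, 0.03 without HS3, 0.59 without TN2 and 0.56 without HS2.

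Across the 10 genes the log2 fold changes ran from -0.63 to 0.51 for HS against TN (6 higher, 4 lower, median 0.12), from -0.82 to 0.73 for PF against TN (6 higher, 4 lower, median 0.08), and from -0.29 to 0.36 for HS against PF (5 higher, 5 lower, median 0.00). Among all tested genes, 49.3%, 48.8% and 50.9% were higher in these comparisons, and the medians were -0.01, -0.01 and 0.01. The FDR of the 10 genes lay between 0.522 and 0.964, between 0.708 and 0.988, and at 1.00 in these comparisons. HS and PF cows were set against the same TN cows, so those comparisons share their controls. TN1 alone held the highest level of 3 of the 10 genes (*POLRMT*, *POLG*, *POLG2*) and the lowest of 4 (*TFB2M*, *SSBP1*, *LRPPRC*, *SLIRP*). Over all genes with enough counts, TN1 was the highest cow for 23.1% and the lowest for 26.9%.

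Transcripts of the mitochondrial genome took a smaller share of the counts in HS and PF livers than in TN livers. The 13 mitochondrial genes took 22.2%, 13.6% and 18.3% of all counts in the TN cows, 6.90%, 7.13% and 7.79% in the PF cows, and 5.47%, 5.68% and 3.85% in the HS cows. The order was TN, then PF, then HS, with no overlap between any groups, and a counting error far below the differences (the 95% Wilson interval of the TN1 share was 22.22% to 22.26%). Divided by the counts outside the mitochondrial genome, mitochondrial counts were 4.17-fold lower in HS than in TN cows, 2.76-fold lower in PF than in TN cows, and 1.51-fold lower in HS than in PF cows. An exact two-sided permutation test gave p = 0.1 for each of the 3 comparisons, which is the smallest p that 3 cows against 3 allow. Because the libraries were made from poly(A) RNA, these counts hold the polyadenylated transcripts of the mitochondrial genome.

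Gene by gene, none of the 13 mitochondrial genes was a DEG in edgeR, but 12 had an unadjusted p under 0.05 between HS and TN, 8 between PF and TN and 3 between HS and PF. DESeq2 called far more of them, with lower levels of all 13 in HS than in TN cows, of 5 in PF than in TN cows (*ND1*, *ND2*, *COX1*, *COX2* and *CYTB*) and of 3 in HS than in PF cows (*COX1*, *ND3* and *ND6*), against the 1.32%, 0.449% and 0.596% of all genes given above. In edgeR their log2 fold changes were -2.36 (*COX1*, cytochrome c oxidase subunit 1) to -1.04 (*ATP6*, an ATP synthase subunit) for HS against TN, with a median of -1.45. For PF against TN they were -1.54 (*COX1*) to -0.43 (*ND3*, a complex I subunit), with a median of -0.90. The median for HS against PF was -0.47. For HS against TN, 9 of the 10 nuclear genes had a 95% interval wholly above the smallest mitochondrial difference of -1.04, and the exception was *POLRMT*. Of all tested genes outside the mitochondrial genome, 67.8% did. All 10 intervals lay above the mitochondrial median, against 81.4% of those genes. For PF against TN, 4 of the 10 intervals lay wholly above -0.43, against 24.0% of all genes, and 9 lay above the mitochondrial median, against 56.1%. For HS against PF, none lay above the smallest mitochondrial difference and 2 lay above the median, against 6.10% and 26.0% of all genes. The intervals of most genes thus lay above the mitochondrial differences between HS and TN, and the distance of the 10 genes from the other genes was not tested.

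**Figure D2:**
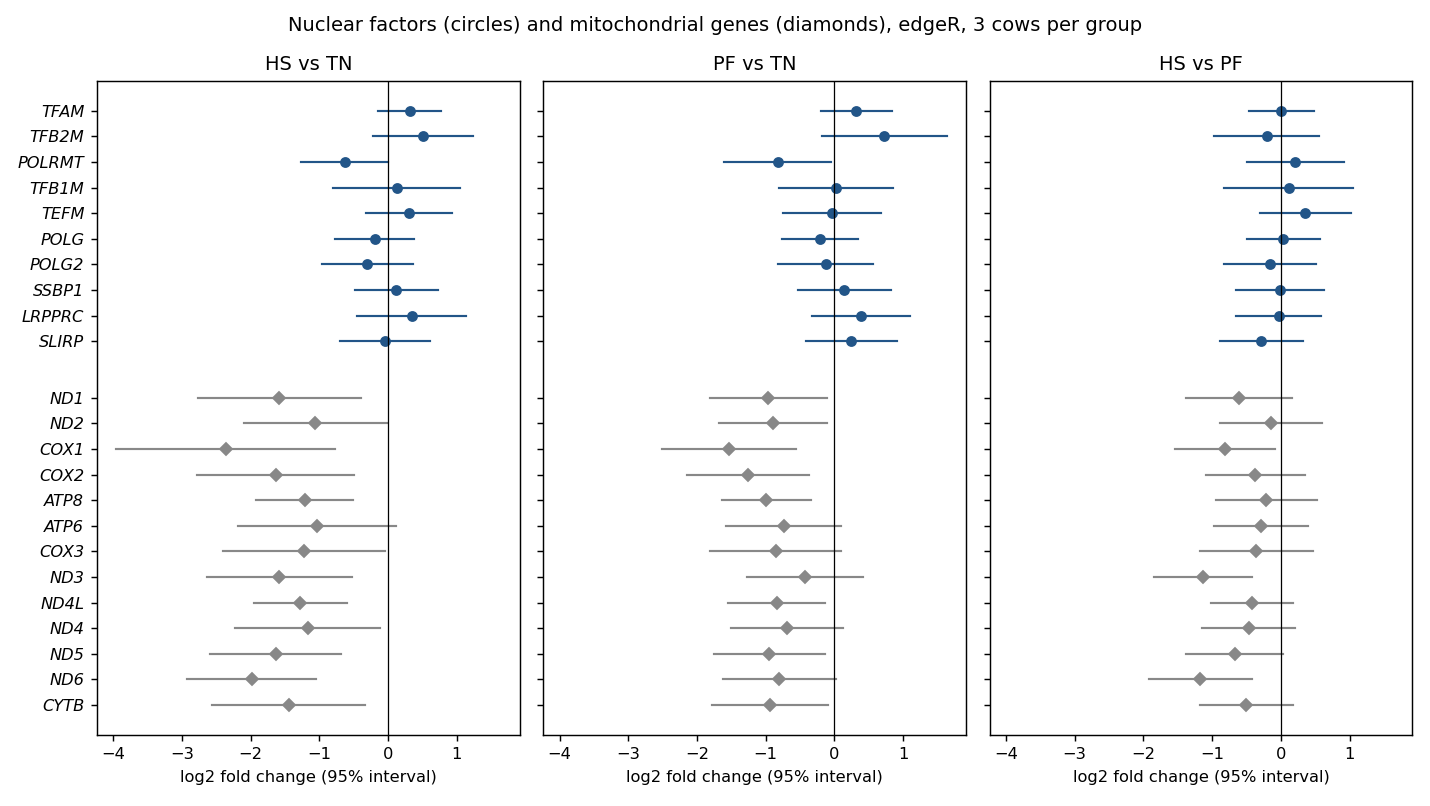
Log2 fold changes with 95% intervals (horizontal axis) from edgeR for the 10 nuclear genes (circles) and the 13 mitochondrial genes (diamonds) in HS against TN, PF against TN and HS against PF, with 3 cows per group. The nuclear genes scatter around 0, from -0.63 to 0.51 in HS against TN, while the 13 mitochondrial genes lie between -2.36 and -1.04 there.

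A ratio taken within a library is free of library size and of normalization, so mitochondrial counts were also divided by the counts of each factor. Between HS and TN, mitochondrial counts per count of the factor were lower without overlap for 10 of the 10 genes, from 2.28-fold fewer per *POLRMT* count to 5.05-fold fewer per *TFB2M* count. The same held for 9 of the 10 between PF and TN, with 1.23-fold fewer per *POLRMT* count, where the groups overlapped, and 3.56-fold fewer per *TFB2M* count. Between HS and PF it held for 3 of the 10, which were *TFAM* (1.53-fold), *TEFM* (1.96-fold) and *POLG* (1.54-fold). Each of these differences without overlap had an exact permutation p of 0.1. When every other gene was put in the place of the factor, 84.9%, 65.3% and 36.6% of all genes gave the same result for HS against TN, PF against TN and HS against PF. Most nuclear genes gave the same picture against TN, and whether the 10 genes differed from them was not tested.

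Per cow, and relative to the TN mean, the log2 mitochondrial ratio differed by -1.54, -1.49 and -1.35 in PF1 to PF3 and by -1.90, -1.84 and -2.43 in HS1 to HS3. On the same scale, per count outside the mitochondrial genome, *TFAM* differed from its TN mean by 0.15, -0.05 and -0.10 in the PF cows and by 0.11, 0.05 and -0.10 in the HS cows. HS3, with the lowest mitochondrial ratio of all cows, thus had nearly the mean TN level of *TFAM*. *POLRMT* differed by -1.14, -1.86 and -0.51 in the PF cows and by -0.50, -1.17 and -0.94 in the HS cows. In PF2 the *POLRMT* difference was larger than the mitochondrial difference of -1.49, and in the other 5 PF and HS cows it was smaller. Over all genes with enough counts this scale moved the median difference from TN to -0.29 for HS and -0.33 for PF cows, and the values for single genes are to be read against that shift.

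**Figure D3:**
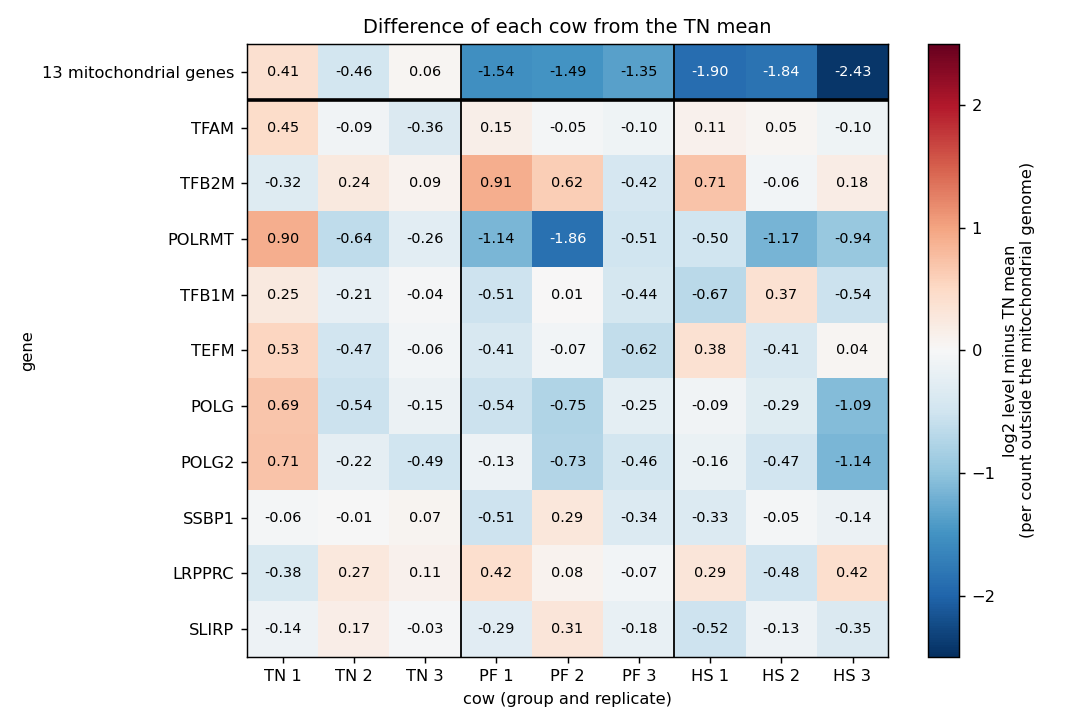
Difference of each cow from the TN mean (color and printed value, log2 of counts per count outside the mitochondrial genome) for the sum of the 13 mitochondrial genes (top row) and the 10 nuclear genes, in columns TN1 to HS3. The top row reads -1.35 to -2.43 in all PF and HS cows, and *POLRMT* is the only nuclear gene below -1 in more than a single PF or HS cow.

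Within groups, the cows differed in the mitochondrial ratio too, and this variation was set against each factor after subtracting the group means. No r over the 9 cows without that step is given, because the TN cows form a separate cluster on the mitochondrial ratio. *POLG* had the closest relation, with Pearson r = 0.94 (exact permutation p = 0.0185 over 216 pairings within groups) and Spearman rho = 0.88 (exact permutation p = 0.0278). Adjusted over all 15060 genes that were given the same test, the FDR of *POLG* was 0.252. *LRPPRC* ran the other way, with r = -0.74 (exact permutation p = 0.0926) and rho = -0.82 (exact permutation p = 0.0231), and its FDR was 0.376. The remaining 8 genes had r between -0.36 (*TFB2M*) and 0.68 (*POLG2*), and none had an exact permutation p under 0.05 for r. Thus 1 of the 10 genes passed an unadjusted p of 0.05, against 15.1% of all genes.

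Leaving out TN2 and HS3, the cows whose centred ratio lay farthest from the median, kept r at 0.88 for *POLG* (exact permutation p = 0.292) and at -0.72 for *LRPPRC* (exact permutation p = 0.0833). Without TN1, r was 0.89 for *POLG* (exact permutation p = 0.0556) and -0.63 for *LRPPRC* (exact permutation p = 0.236). Within the 6 HS and PF cows, without subtracting group means, r ranged from -0.57 (*TEFM*) to 0.56 (*POLG2*), none of the 10 genes had a permutation p under 0.05, and 3.37% of all genes did. HS and PF cows did not overlap on the mitochondrial ratio either, so r over these 6 cows also holds the difference between groups. *POLG* had r = 0.48 there (exact permutation p = 0.357), and r = -0.96 in the 4 of these cows nearest to the median (exact permutation p = 0.0833). With levels as TMM-normalized CPM in place of levels per count outside the mitochondrial genome, r was 0.93 for *POLG* and -0.90 for *LRPPRC* (exact permutation p = 0.00926 and FDR = 0.263 for each). The sign of r for *TFAM* turned with that scale, from 0.51 to -0.37, and it also turned on the first scale without TN1, to -0.12. For *POLRMT* r was 0.62 with TN1 and 0.31 without it. On the first scale 75.0% of all genes had a positive r, and on the TMM scale 49.4%.

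**Figure D4:**
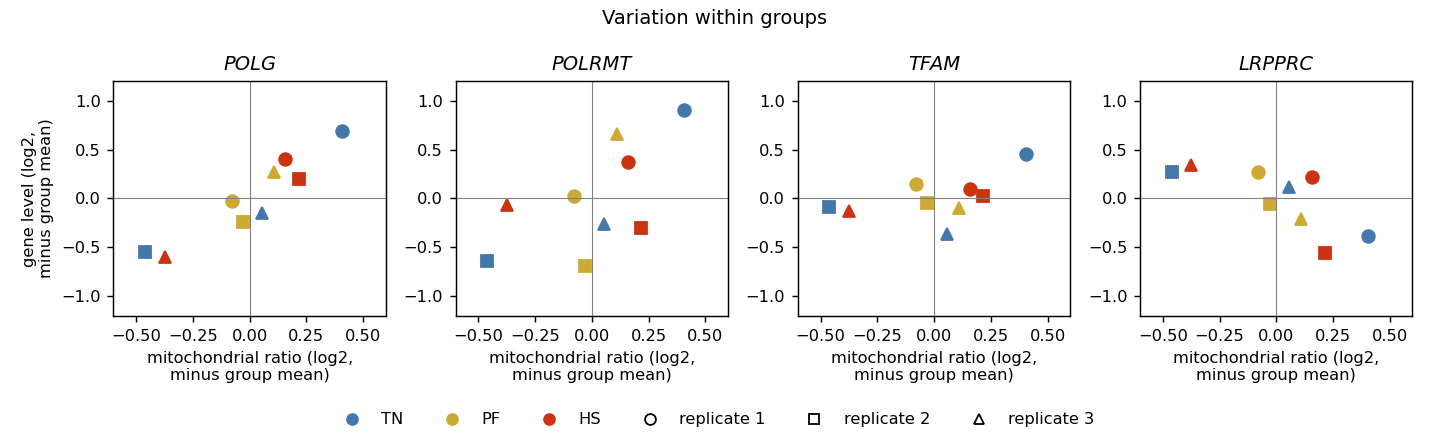
Level of *POLG*, *POLRMT*, *TFAM* and *LRPPRC* (vertical axis, log2 per count outside the mitochondrial genome, minus the group mean) against the mitochondrial ratio (horizontal axis, log2, minus the group mean) in the 9 cows, with colors for TN, PF and HS and shapes for replicates 1 to 3. The *POLG* points slope upward (r = 0.94) and the *LRPPRC* points downward (r = -0.74), while the *TFAM* points spread without a close relation (r = 0.51).

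Genes whose products work together were also compared within libraries, as ratios of counts. The *TFAM* to *POLRMT* ratio was 0.983, 1.97 and 1.26 in TN, 3.30, 4.73 and 1.79 in PF, and 2.06, 3.13 and 2.41 in HS cows. The HS cows were all above the TN cows, and PF3 overlapped with them. The mean ratio was 1.85-fold higher in HS than in TN (exact permutation p = 0.1) and 2.25-fold higher in PF than in TN (exact permutation p = 0.2). *POLRMT* to *TEFM*, the polymerase against its elongation factor, was 3.34, 2.29 and 2.24 in TN, 1.55, 0.747 and 2.79 in PF, and 1.40, 1.52 and 1.30 in HS cows. It was 1.84-fold lower in HS than in TN without overlap (exact permutation p = 0.1). Both ratios contain *POLRMT*, which was highest in TN1. That cow had the lowest *TFAM* to *POLRMT* and the highest *POLRMT* to *TEFM* ratio of all cows. *TFAM* and *POLRMT* had each separated HS from TN cows in CPM, in opposite directions, so their ratio is not independent of those levels. The share of other gene ratios that separate these groups was not counted.

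The other ratios overlapped between all groups. *LRPPRC* to *SLIRP*, the partners of the mRNA-stabilizing complex, was 0.532, 0.675 and 0.698 in TN, 1.03, 0.540 and 0.680 in PF, and 1.11, 0.497 and 1.08 in HS cows. It was higher in HS1 and HS3 than in any TN cow and lower in HS2 than in any other cow, and the HS and TN means differed by 0.42 on the log2 scale (exact permutation p = 0.4). *POLG* to *POLG2* ranged from 3.86 to 6.50 over the 9 cows, with log2 differences between groups of -0.07 to 0.18. The ratio of the paralogs *TFB1M* to *TFB2M* ranged from 0.217 to 0.861. In all, 5 ratios were compared in 3 comparisons each, and none of the 15 exact permutation tests could give a p below 0.1.

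The wider machinery of mitochondrial DNA and RNA was read from 91 further genes, of which 88 were tested between HS and TN, 89 between HS and PF and 88 between PF and TN. None was a DEG. At an unadjusted p under 0.05, 1 was higher and 6 were lower in HS than in TN, against 4.13% and 5.23% of all genes. For HS against PF the counts were 0 higher and 2 lower, against 3.07% and 2.25% of all genes, and for PF against TN they were 2 higher and 1 lower, against 2.99% and 3.89%. The median log2 fold changes were 0.03, -0.07 and 0.04. Of these genes, those with the smallest p-values are described next by their roles, whether or not they passed a limit.

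Among 12 tested genes of replication and DNA maintenance, 9 were higher and 3 lower in HS than in TN cows. Of all tested genes 49.3% were higher, and the counts of higher and lower genes in these lists are to be read beside that share. *APEX1*, an endonuclease of base excision repair, measured 18.8 ± 4.67 CPM in TN, 26.2 ± 7.58 CPM in PF and 35.5 ± 8.34 CPM in HS cows (SD, n = 3). For HS against TN, where its groups did not overlap, the log2 fold change was 0.90 (SE 0.26, edgeR FDR = 0.392). *ENDOG*, a mitochondrial nuclease, measured 38.0 ± 20.0 CPM in TN, 78.7 ± 7.71 CPM in PF and 52.4 ± 23.6 CPM in HS cows. Its log2 fold change for PF against TN was 1.05 (SE 0.36, edgeR FDR = 0.697).

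Among 13 tested genes of nucleotide supply, *SLC25A33*, a carrier of pyrimidine nucleotides, was highest in PF cows. It measured 15.6 ± 2.53 CPM there, against 9.13 ± 3.84 CPM in TN and 9.25 ± 2.63 CPM in HS cows. The log2 fold change was 0.78 (SE 0.35, edgeR FDR = 0.708) for PF against TN and -0.76 (SE 0.28, edgeR FDR = 0.781) for HS against PF. In this list 9 genes were higher and 4 lower in HS than in TN cows.

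In the 38 genes of RNA processing, modification and decay, 16 were higher and 22 lower in HS than in TN cows. The 4 with an unadjusted p under 0.05 were all lower. At that limit 5.23% of all tested genes were lower and 4.13% higher, and the distance of this list from those shares was not tested. *NSUN3*, which methylates the mitochondrial methionine tRNA, measured 36.3 ± 4.07 CPM in TN, 31.8 ± 4.87 CPM in PF and 21.6 ± 8.32 CPM in HS cows, and its log2 fold change for HS against TN was -0.76 (SE 0.28, edgeR FDR = 0.473). *PUS1*, a pseudouridine synthase, ranged from 32.2 to 52.8 CPM in TN, from 22.3 to 27.7 CPM in PF and from 24.6 to 36.7 CPM in HS cows, and its log2 fold change for PF against TN was -0.86 (SE 0.26, edgeR FDR = 0.693). *TRMT5*, a tRNA methyltransferase, had a log2 fold change of -0.79 (SE 0.33, edgeR FDR = 0.908) for HS against PF.

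Of 10 tested translation factors 7 were higher and 3 lower in HS than in TN cows. *MTRF1L*, a mitochondrial release factor, measured 21.6 ± 3.35 CPM in TN and 14.7 ± 1.66 CPM in HS cows without overlap, with a log2 fold change of -0.57 (SE 0.22, edgeR FDR = 0.481). Of 10 nuclear regulators of mitochondrial genes, which include *NRF1* and *PPARGC1A*, 4 were higher and 6 lower in HS than in TN cows, and none had an unadjusted p under 0.05. All 4 genes of the transcription termination factor family were tested, and 3 were higher and 1 lower. *LONP1*, the protease that degrades TFAM protein, had a log2 fold change of 0.36 for HS against TN (edgeR FDR = 0.652).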

How the data were processed

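Read counts per gene were deposited by the authors for 9 libraries of poly(A) RNA from liver, with no normalization applied. Before deposit, reads had been cleaned with fastp 0.23.2, aligned to ARS-UCD1.2 with STAR 2.7.9a and counted with featureCounts 2.0.3. The annotation release and the strand and multi-mapping settings were not given in the sources used here. Libraries held 16874444 to 22557047 counts, and 0 columns were left unused.

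For every comparison the 6 libraries concerned were analysed by edgeR 4.0.16 in R 4.3.3 (quasi-likelihood F test) after TMM normalization and filterByExpr, and p-values of all tested genes were adjusted together by the Benjamini-Hochberg method. Calls needed an FDR under 0.1 with a fold change over 1.5. All 10 genes passed the filter in each comparison. The SE is that implied by the F statistic, and CPM were scaled over all 9 libraries. Levels set against mitochondrial counts were log2 counts, with an offset of 0.5, per count outside the mitochondrial genome. Permutation tests were exact and two-sided. The 95% Wilson intervals cover counting error only. Tests were first tested on simulated data.

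The alternatives were DESeq2 1.42.0, size factors by RLE, library sizes without mitochondrial genes, no filter, at least 10 counts in every library, a joint fit of 9 libraries, replicate number as block, FDR under 0.05, and leaving out 1 cow at a time. After seeing the data, 1 cow at a time was also left out for all 10 genes per count outside the mitochondrial genome, for HS and for PF against TN. Of these results only those of *TFAM* and *POLRMT* for HS against TN are given. For the mitochondrial ratio the alternatives were the share of all counts and the ratio without *COX1*, for correlations the TMM scale, and for ratios of partners an offset of 5 counts. The 10 genes and all lists were chosen with earlier results of these data known. All 10 genes are named, any of the 13 mitochondrial genes may be, and from the other lists those called or, with none called, the 3 with the smallest p in each comparison. A gene that this rule also named is not reported here. Symbols and overlaps came from RefSeq for ARS-UCD2.0, in which 24366 of 28786 symbols were found, so no positions are given. A search of promoters for motifs and levels per gene length were not run. *TYMP*, *MTRFR* and *CSF3R* were not found by symbol, and *PRORP* was read as *KIAA0391*. *NRF1*, *PPARGC1A* and *LONP1* were named after their values were seen, as examples of their list.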

Additional observations from a re-analysis of the deposited data

How the results depend on the processing

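None of the 10 genes was called in any comparison under any of the 14 alternatives, DESeq2 included. *POLRMT* had an unadjusted p under 0.05 in 10 of the 14 alternatives for PF against TN and in 3 of 14 for HS against TN. The FDR under 0.05 keeps the main fit and its p-values, so it is among those 10 by design and could add no call. *TFB2M* had an unadjusted p under 0.05 in 1 of 14 for PF against TN. The mitochondrial ratio kept its direction under each alternative. At 58 to 1295 counts per gene and 3 cows per group, the widest 95% interval of a log2 fold change, that of *TFB1M* for HS against PF, ran from -0.82 to 1.05.

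With the replicate number as a block, *SSBP1* for HS against PF went from -0.02 to 0.00449, no other log2 fold change of the 10 genes turned its sign, and none was called. Same-numbered cows did not deviate together (correlations from -0.18 to 0.20, with 3, 0 and 2 of 6 cows closest to their own number). Over all genes, calls for HS against TN, HS against PF and PF against TN numbered 13, 4 and 0, and they were 33, 6 and 1 with the block, 270, 122 and 91 with DESeq2, and 124, 98 and 136 without a filter. RLE size factors gave 16, 8 and 0, and library sizes without mitochondrial genes gave 13, 8 and 0. At least 10 counts in every library gave 10, 4 and 1, the joint fit gave 4, 3 and 0, and an FDR under 0.05 gave 0, 4 and 0. Leaving out a cow gave 0 (HS2) to 39 (TN2), 5 (HS2) to 10 (PF3) and 0 (TN1, TN3, PF1 or PF2) to 14 (TN2).

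Of the log2 fold changes of the 10 genes under all alternatives, 391 kept their sign and 29 did not. Those under the FDR under 0.05 are the values of the main fit and could not turn. With each cow left out in turn, those that turned ranged for HS against TN from -0.32 to 0.41 (*TFB1M*), -0.062 to 0.32 (*SSBP1*) and -0.26 to 0.16 (*SLIRP*). For HS against PF they ranged from -0.078 to 0.10 (*TFAM*), -0.53 to 0.083 (*TFB2M*), -0.045 to 0.55 (*POLRMT*), -0.35 to 0.39 (*TFB1M*), -0.11 to 0.21 (*POLG*), -0.27 to 0.030 (*POLG2*), -0.16 to 0.31 (*SSBP1*) and -0.35 to 0.17 (*LRPPRC*). For PF against TN the ranges were -0.19 to 0.14 (*TFB1M*), -0.22 to 0.12 (*TEFM*), -0.31 to 0.049 (*POLG2*) and -0.17 to 0.30 (*SSBP1*).

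Per count outside the mitochondrial genome, an alternative chosen after seeing the data, the *TFAM* difference between HS and TN ranged from -0.16 to 0.24 with each cow left out in turn, around 0.02. That of *POLRMT* ranged from -1.19 to -0.42, around -0.87.

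Log2 ratios of partner genes that turned ranged from -0.057 to 0.41 for *LRPPRC* to *SLIRP* (PF against TN), -0.060 to 0.27 (HS against TN) and -0.24 to 0.10 (PF against TN) for *POLG* to *POLG2*, and, for HS against PF, -0.37 to 0.54 for *TFB1M* to *TFB2M*, -0.66 to 0.040 for *TFAM* to *POLRMT* and -0.57 to 0.38 for *POLRMT* to *TEFM*. The number of genes whose level followed the mitochondrial ratio at an exact permutation p under 0.05 was 1 of 10, and 2 on the TMM scale. With a cow left out it was 0 to 2 (0 without TN1, TN2, TN3 or PF3, and 2 without HS1 or HS3). The shares of all genes were 15.1%, 14.7% on the TMM scale, and 5.45% (without HS3) to 13.3% (without PF1) with a cow left out. The smallest p that the exact permutation test allows was 0.00463 with 9 cows and 0.0139 with a cow left out, so these counts are not on equal terms. The cause of these differences was not tested.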

Other observations

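*SSBP1* and *SLIRP* kept the steadiest ratio of any pair among the 10 genes. The ratio of their counts was 0.421, 0.351 and 0.427 in the TN cows, 0.340, 0.395 and 0.355 in the PF cows and 0.454, 0.423 and 0.461 in the HS cows. Every HS cow lay above every PF cow, and the TN cows overlapped with both. Among single genes 10.5% did not overlap between HS and PF, and the share of gene ratios that do not was not counted. The SD of the log2 ratio over the 9 cows was 0.164. Among 15072 genes set against *SSBP1* in this way, *SLIRP* ranked 16th by smallest SD, and the median SD was 0.586. The next pair was *POLG* with *POLG2*, with an SD of 0.243, where *POLG2* ranked 749th against a median SD of 0.543. These ranks describe the 9 libraries and were not tested.

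*ND6* is the protein-coding gene that is read from the other strand of mitochondrial DNA than the remaining 12. Its counts were 1.07%, 0.883% and 1.02% of those on the other 12 genes in TN, 1.77%, 1.10% and 1.01% in PF, and 1.10%, 0.826% and 0.645% in HS cows. HS3 had the lowest share and PF1 the highest, and all groups overlapped. The strand setting of the counting was not given, so reads of the opposite strand could be among the *ND6* counts. Whether the share follows the output of each strand was not tested. The log2 difference was -0.24 for HS against TN (exact permutation p = 0.5), -0.58 for HS against PF (exact permutation p = 0.2) and 0.34 for PF against TN (exact permutation p = 0.3).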
